A study of Mus musculus with 7 samples.

Results

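The TENT5 genes encode noncanonical cytoplasmic poly(A) polymerases, enzymes that add adenosines to the tails of finished mRNAs. The 4 members are Tent5a, Tent5b, Tent5c and Tent5d, which are 4 of the 55401 genes in the deposited table, and they were taken by their gene names. The family was chosen by measured values, because Tent5c had the smallest adjusted P value in a DESeq2 comparison of these same samples, so the genotype difference of Tent5c is given as a description, without a test. RNA-Seq was performed on knee tissue of male C57BL/6J mice after destabilization of the medial meniscus (DMM), a surgical model of osteoarthritis in which a meniscal ligament of the right knee is cut. By the labels there were 4 WT samples and 3 Trpc1-/- samples, all operated at 10 weeks of age and collected 2 weeks after DMM. The Trpc1-/- mice carried the Trpc1tm1Lbi allele, which removes exon 8 of Trpc1, the gene of a calcium-permeable channel, and WT mice came from the same colony. Each sample pooled the RNA of 2 to 3 mice, so a sample is a pool and not an animal. The labels name femoral head and tibial plateau cartilage, and the study's methods add subchondral bone, which holds marrow. No unoperated samples were analysed here, so each value describes an operated knee.

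A poly(A) tail protects an mRNA and helps it to be translated, deadenylases shorten it, and cytoplasmic polymerases can lengthen it again. TENT5C works with the endoplasmic reticulum membrane proteins FNDC3A and FNDC3B and acts on mRNAs of secreted and membrane proteins, such as immunoglobulins in plasma cells, and its gene is often lost in multiple myeloma. TENT5A acts in osteoblasts on mRNAs of bone matrix proteins, such as collagen I, and mutations of the human gene cause osteogenesis imperfecta. TENT5D is known from the testis. The libraries measured the amount of each RNA and not the length of its tail, so nothing below is a measure of polymerase activity.

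The 4 genes lie on different chromosomes of GRCm38. Tent5a-201 lies on the minus strand of chromosome 9, at 85320439 to 85327124, with 3 exons and 1341 coding bases. Tent5b-201 lies on the plus strand of chromosome 4, at 133480132 to 133487938, with 2 exons and 1281 coding bases. Tent5c-201 lies on the minus strand of chromosome 3, at 100468057 to 100489324, with 2 exons and 1173 coding bases, and Tent5d-201 lies on the plus strand of chromosome X, at 107792590 to 107872909, with 6 exons and 1170 coding bases. Tent5a and the disrupted Trpc1 share chromosome 9, 10.4 Mb apart.

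The stretch of 60 coding bases in which Tent5c is most like the other members is shown because it shows how close the 4 mRNAs are where they are most alike, which bears on whether a read could be given to the wrong member. The sequences are from GENCODE M21 transcripts, on the coding strand, 5′ to 3′, and capitals mark bases that differ from Tent5c.
Tent5c, chr3:100472932-100472991, minus strand: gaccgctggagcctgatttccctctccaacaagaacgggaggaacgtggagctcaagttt
Tent5a, chr9:85325132-85325191, minus strand: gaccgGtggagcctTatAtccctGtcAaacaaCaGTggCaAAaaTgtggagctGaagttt
Tent5b, chr4:133486372-133486431, plus strand: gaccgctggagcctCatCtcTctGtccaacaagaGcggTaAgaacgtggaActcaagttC
Tent5d, chrX:107870737-107870796, plus strand: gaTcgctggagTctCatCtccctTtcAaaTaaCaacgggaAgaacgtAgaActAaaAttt
Tent5a and Tent5d each differed from Tent5c at 13 of these bases and Tent5b at 9. Over the whole coding sequence Tent5c was 71.2% identical to Tent5a, 67.5% to Tent5b and 64.4% to Tent5d. The longest run shared by any 2 member transcripts was 24 bases, between Tent5a and Tent5b (GGCCTAGGCTACAAGGACCTGGAC), and between Tent5a and Tent5c it was 17 bases (GAGGAGATCAAGACCCT). Both runs are shorter than the sequenced reads.

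The samples held between 52142451 and 118254070 counts. Levels are given as CPM, counts scaled to library size. The lowest level distinguished from none here was 3 counts, which is 0.0254 to 0.0575 CPM when scaled to all counts of a sample. The other CPM values are scaled to the counts of the tested genes, corrected for library composition unless said otherwise, so they differ slightly from this scale. WT replicate 1 was the shallowest sample and stood apart, with a mean correlation of log2 CPM to the other samples of 0.947 against 0.973 to 0.980. In that sample mt-Rnr2, a mitochondrial ribosomal RNA, took 19.6% of the counts, against 12.3% to 15.4% in the others, and its genes departed from the other WT samples with exon length. Trpc1 was at 4.83, 4.55, 4.77 and 4.33 CPM in the WT samples and at 3.35, 3.79 and 3.04 CPM in the Trpc1-/- samples, without overlap. That is a log2 fold change of -0.44 (SE 0.13), with an adjusted P of 0.41 by edgeR's quasi-likelihood test and 0.050 by DESeq2, both with Benjamini-Hochberg adjustment, and counts over the whole gene do not show the loss of exon 8. The tissue held chondrocyte, osteoblast and marrow RNA: the 6 chondrocyte markers summed to 4194 to 4627 CPM in WT and 2434 to 4661 in Trpc1-/-, the 6 neutrophil markers to 4293 to 14184 and 10525 to 14221, and the 5 erythroid markers measured to 11847 to 22783 and 26179 to 36099. In bulk RNA, fewer cells of a type and less RNA per cell cannot be told apart. Of the 16429 genes tested, edgeR called 0 at an adjusted P under 0.05 and 1643 at an unadjusted P under 0.05, which is 10% of them, whereas DESeq2 called 294, or 1.79%.

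Tent5c was the abundant member and was higher in Trpc1-/- tissue. Its level was 443, 416, 413 and 414 CPM in WT replicates 1 to 4 and 626, 631 and 675 CPM in Trpc1-/- replicates 1 to 3. The groups did not overlap, and the lowest Trpc1-/- sample was 1.41 times the highest WT sample. Among all tested genes, 7.15% had 3 Trpc1-/- values all above the 4 WT values, and nothing is read from the place of Tent5c among them, because the family was chosen in this contrast. The mean was 422 ± 14.5 CPM (SD, n = 4) in WT and 644 ± 27.1 CPM (SD, n = 3) in Trpc1-/-, a log2 fold change of 0.61 (SE 0.086) or 1.53-fold. Within a genotype the samples lay within 1.08-fold of each other. The within-genotype SD of Tent5c was 0.054 on the log2 scale. Over the 125 tested genes within 0.5 log2 CPM of it the median was 0.249, and 2.4% of those genes had a smaller one. Choosing a gene by its smallest adjusted P favours a small SD, so nothing is read from this place either. Without TMM scaling, the trimmed mean of M values that corrects for library composition, the WT samples stood at 405, 442, 435 and 434 CPM and the Trpc1-/- samples at 650, 618 and 621. So WT replicate 1 was the highest WT sample with that scaling and the lowest without it, and the gap between the genotypes was there either way. Without WT replicate 1 the log2 fold change was 0.63.

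**Figure D1:**
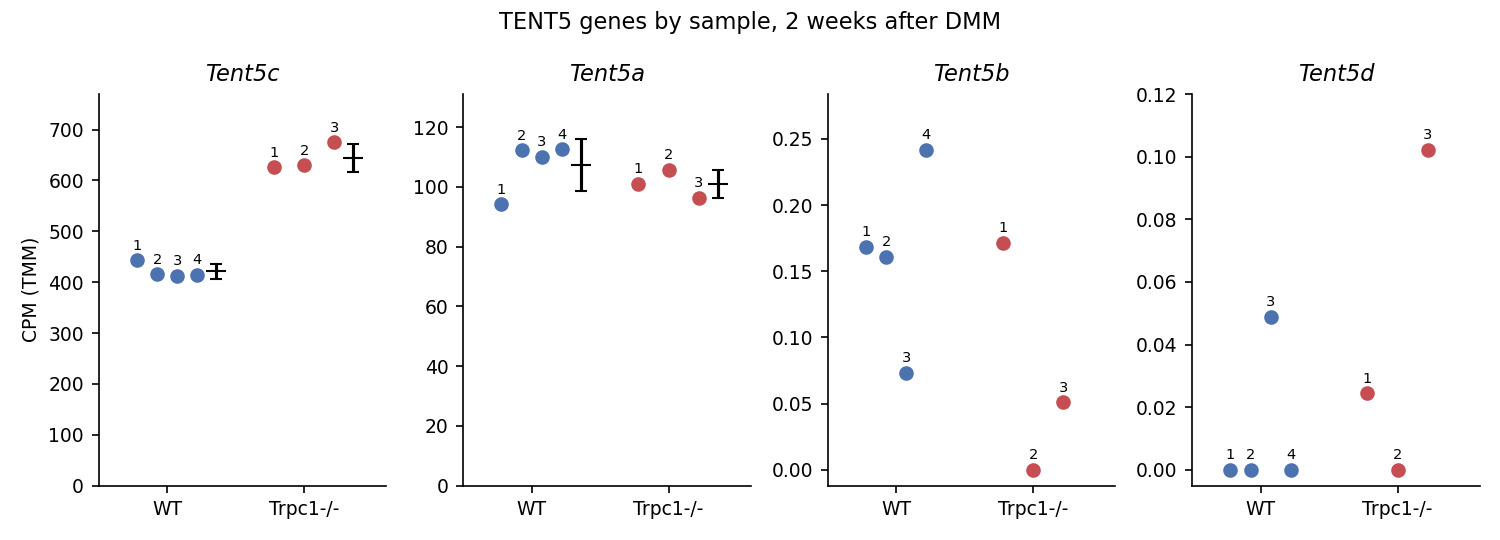
CPM after TMM scaling of each TENT5 gene in the 4 WT and 3 Trpc1-/- samples, numbered by replicate, with the mean and SD beside them for Tent5c and Tent5a; the y axes differ between panels. Tent5c lies at 413 to 443 CPM in WT and 626 to 675 CPM in Trpc1-/-, while Tent5a overlaps and Tent5b and Tent5d stay near 0.

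Tent5a, the osteoblast member, overlapped between the genotypes. Its level was 94.3, 112, 110 and 113 CPM in the WT samples and 101, 106 and 96.4 CPM in the Trpc1-/- samples. All 3 Trpc1-/- samples fell between the low WT replicate 1 and the other WT samples. The mean was 107 ± 8.77 CPM (SD, n = 4) in WT and 101 ± 4.71 CPM (SD, n = 3) in Trpc1-/-, a log2 fold change of -0.09 (SE 0.090), smaller than its own error. Without WT replicate 1 it was -0.15.

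Tent5b and Tent5d were close to the detection limit and failed the filter of more than 1 CPM in at least 2 samples. Tent5b had 8, 17, 9 and 19 counts in the WT samples and 21, 0 and 5 counts in the Trpc1-/- samples. The 0 in Trpc1-/- replicate 2 allows a level of up to 0.0316 CPM, scaled to all counts of that sample. Tent5d had 0, 0, 6 and 0 counts in WT and 3, 0 and 10 in Trpc1-/-, and only WT replicate 3 and Trpc1-/- replicate 3 were above 3 counts. Summed over samples, Tent5b held 53 counts in WT and 26 in Trpc1-/-, and Tent5d held 6 and 13, too few and too uneven to compare. The 4 male germ cell markers, for the tissue in which TENT5D is known, likewise all failed the filter, and 3 of them had no count in any sample. A gene on the other strand overlaps each of them, and the libraries and alignment kept the strand.

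Per kb of exon sequence, a rough scale for levels of different genes, Tent5c was the highest of 14 poly(A) polymerases and terminal nucleotidyltransferases in both genotypes. The length was that of all annotated exons of a gene together, which can exceed that of the transcript expressed. It was 14732 bases for Tut7, 6595 for Papola, 6097 for Tent5c and 5703 for Tent5a. The order of Papola, Tent5a and Tut7 below rests on these lengths. Tent5c stood at 69.2 ± 2.38 CPM per kb (SD, n = 4) in WT and 106 ± 4.45 CPM per kb (SD, n = 3) in Trpc1-/-. Papola, the canonical nuclear poly(A) polymerase, followed at 21.7 ± 0.794 and 22.6 ± 1.08 CPM per kb. Tent5a came next in WT, at 18.8 ± 1.54 CPM per kb, and just after Tut7 in Trpc1-/-, at 17.7 ± 0.826. Papola lay above Tent5a in every sample. By this measure Tent5a did not separate from Tut7, a uridylyltransferase, at 16.9 ± 1.45 and 17.8 ± 0.758 CPM per kb. Tent2, Tent4b, Tut4, Papolg, Tut1, Mtpap and Tent4a had means between 3.10 and 10.3 CPM per kb, and those of Papolb, Tent5b and Tent5d were 0.0908 or lower. Tent5c ranked above 97.0% to 98.1% of the tested genes with an exon length, by CPM per kb, and Tent5a above 86.9% to 89.4%. The ratio of Tent5c to Tent5a within a sample, which no scaling can change, was 4.40, 3.47, 3.51 and 3.44 per kb in the WT samples and 5.79, 5.58 and 6.55 in the Trpc1-/- samples.

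**Figure D2:**
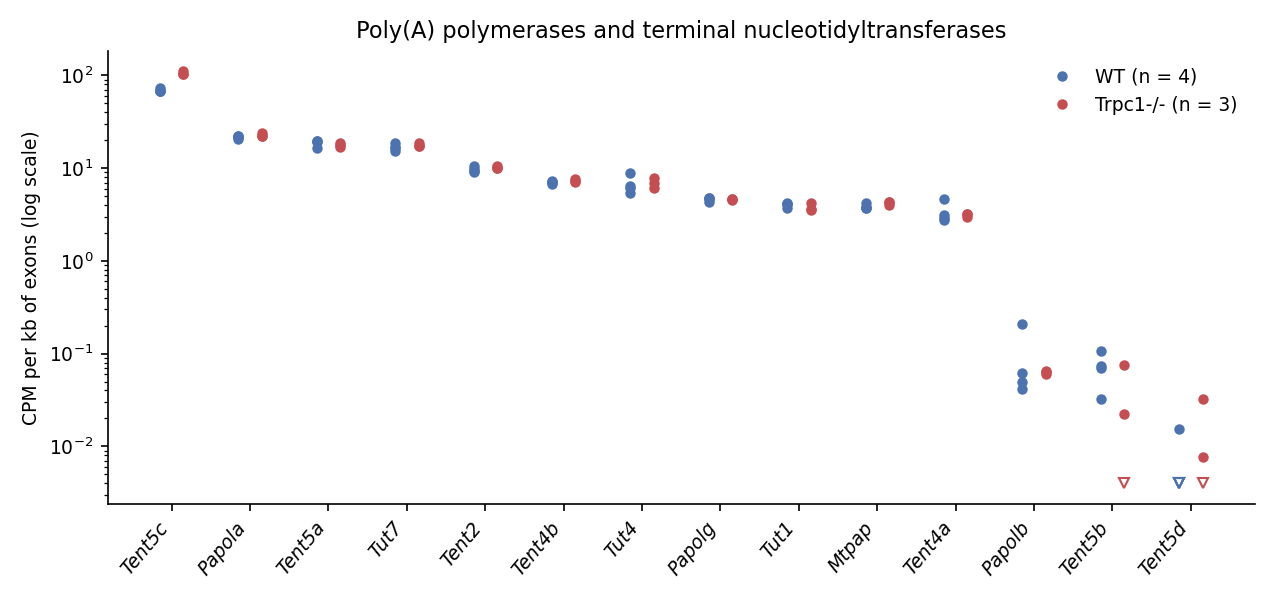
CPM per kb of exons, on a log axis, of 14 polymerases and nucleotidyltransferases in each WT (blue) and Trpc1-/- (red) sample, ordered by the WT mean; open triangles at the bottom mark samples with 0 counts. Tent5c lies above every other enzyme in all 7 samples.

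The other genes that lengthen, bind or shorten tails differed little between the genotypes. Of 56 tested genes of the poly(A) machinery, 3 were higher and 1 was lower at an unadjusted P under 0.05 in edgeR, and 0 were called after adjustment by edgeR or DESeq2. Over all tested genes, 4.51% were higher and 5.49% lower at that unadjusted P. Of the 56, 7 were higher and 1 was lower without overlap, against 7.15% and 6.42% of all tested genes. The median log2 fold change of these 56 genes was 0.05, against -0.01 over all tested genes. None of the 7 noncanonical nucleotidyltransferases outside the family passed, with log2 fold changes from -0.11 for Tent4a to 0.12 for Mtpap, the mitochondrial poly(A) polymerase. Tent2, which lengthens tails in the cytoplasm, was at 38.2, 40.4, 38.6 and 43.6 CPM in WT and 41.5, 42.4 and 44.5 in Trpc1-/-, so the groups overlapped. Papola had a log2 fold change of 0.06 (SE 0.076) and Papolg one of -0.02 (SE 0.064). Tut1, Tut4, Tut7 and Tent4b also overlapped between the genotypes.

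Among the cytoplasmic poly(A)-binding proteins, which coat the tail, Pabpc4 was at 122, 117, 117 and 108 CPM in WT and 148, 130 and 131 CPM in Trpc1-/-, and Larp4, which binds tails and these proteins, at 67.9, 76.1, 72.9 and 76.9 and at 84.5, 82.0 and 82.0. In both genes the genotypes did not overlap, and the edgeR adjusted P with Benjamini-Hochberg adjustment was 0.46 and 0.49. Pabpc1, the main poly(A)-binding protein of the cytoplasm, ranged from 323 to 802 CPM in WT, with WT replicate 1 the highest, and from 461 to 669 CPM in Trpc1-/-. Among the deadenylases and their adaptors, Btg2, which recruits deadenylases, had a log2 fold change of 0.24 (SE 0.10) without overlap, and its edgeR adjusted P with Benjamini-Hochberg adjustment was 0.50. Cnot7, Cnot6l, Pan2 and Parn, all of deadenylases, had log2 fold changes of 0.09, 0.12, -0.19 and 0.08, and Tob1 and Btg1, both adaptors, 0.02 and 0.08. All 6 overlapped between genotypes.

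Of the TENT5C partners, Fndc3a was at 92.5, 85.7, 85.2 and 92.4 CPM in WT and 85.0, 86.1 and 81.8 CPM in Trpc1-/-. Fndc3b was at 152, 129, 126 and 119 CPM in WT and 103, 119 and 100 CPM in Trpc1-/-. Fndc3b had a log2 fold change of -0.29 (SE 0.11), with groups that just overlapped, and its edgeR adjusted P with Benjamini-Hochberg adjustment was 0.47. Bccip and Plk4, a centriole kinase, had log2 fold changes of 0.17 (SE 0.081) and 0.17 (SE 0.075), of which Plk4 did not overlap.

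Erythroid genes lay on the same side as Tent5c, a side not particular to them. By the median log2 fold change, markers of neutrophils (0.20), macrophages (0.20), megakaryocytes (0.11) and T cells (0.24) were higher too. So were those of plasma cells (0.35), adipocytes (0.33) and skeletal muscle (0.70). Markers of osteoclasts (-0.10), endothelium (-0.06), osteoblasts (-0.26) and chondrocytes (-0.42) were lower. All 43 measured erythroid genes were higher in Trpc1-/- by their mean, against 48.1% of all tested genes. The median log2 fold change was 0.37, and 26 of the 43 did not overlap, where 7.15% of all tested genes were higher without overlap. At an unadjusted P under 0.05 in edgeR 28 were higher and 0 lower, against 4.51% higher over all genes. DESeq2 called 15 higher and 0 lower, against 0.962% of all genes higher, and edgeR called 0 after adjustment. The DESeq2 count changed when single samples were left out, which also leaves fewer samples for the test. It was 3 without Trpc1-/- replicate 1 or 3, 4 without WT replicate 2 and 8 without WT replicate 4. It was 16 without WT replicate 3, 20 without Trpc1-/- replicate 2 and 30 without WT replicate 1. These genes are transcribed in the same cells, so they are not independent of each other, and the list was chosen with earlier results of these samples known. Hbb-bs, the adult beta globin, was at 6097, 11056, 12307 and 10204 CPM in WT and 15958, 14446 and 20392 CPM in Trpc1-/-. Hba-a1, the alpha globin, was at 4139, 7556, 8519 and 6577 CPM in WT and 10319, 9486 and 13218 CPM in Trpc1-/-.

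The erythroid genes called by DESeq2 included enzymes, membrane proteins and a transcription factor. Alas2, the first enzyme of erythroid heme synthesis, was at 405, 572, 608 and 520 CPM in WT and 899, 703 and 828 CPM in Trpc1-/-, a log2 fold change of 0.62 (SE 0.16). Fech, the last enzyme of that pathway, was at 330, 331, 336 and 326 CPM and at 454, 398 and 449 CPM. Epb41, a protein of the membrane skeleton, was at 552, 530, 515 and 515 CPM in WT and 763, 667 and 727 CPM in Trpc1-/-. In each of these genes every Trpc1-/- sample was above every WT sample. The DESeq2 adjusted P with Benjamini-Hochberg adjustment was 0.016 for Alas2, 4.2e-05 for Fech and 4.2e-06 for Epb41. Slc4a1, the anion exchanger, and Rhag, of the Rhesus complex, had log2 fold changes of 0.34 and 0.43. Also called were Alad, Bnip3l, Bpgm, Car1, Hbb-bt, Mkrn1, Tal1, a transcription factor of blood progenitors and erythroid cells, Tmcc2 and Xpo7, between 0.28 for Xpo7, a nuclear export receptor, and 1.03 for Car1, a carbonic anhydrase.

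Other erythroid genes were not called. Gata1, the transcription factor of the lineage, was at 26.8, 38.9, 42.3 and 37.9 CPM in WT and 52.9, 39.6 and 41.4 CPM in Trpc1-/-. Its log2 fold change was 0.29 (SE 0.17), with overlap. Klf1, a globin activator, Epor, the erythropoietin receptor, and Tfrc, the transferrin receptor, had log2 fold changes of 0.48 (SE 0.20), 0.22 (SE 0.12) and 0.14 (SE 0.11), and each overlapped. The edgeR adjusted P with Benjamini-Hochberg adjustment of these 4 genes lay between 0.48 and 0.64.

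**Figure D3:**
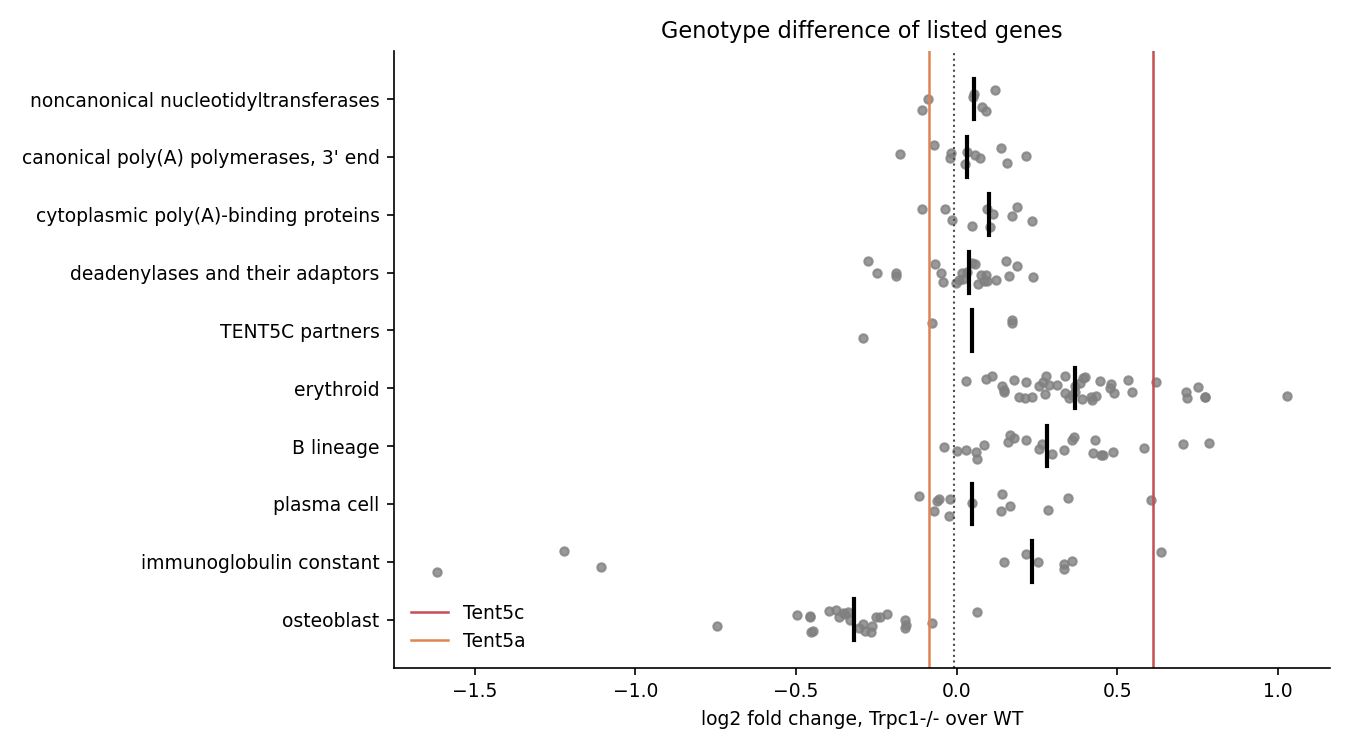
Log2 fold change (Trpc1-/- over WT, x axis) of each tested gene (grey points) of 10 lists, with the list median (black bar), the median of all 16429 genes (dotted line) and the values of Tent5c (red line) and Tent5a (orange line). Erythroid genes lie on the positive side with a median of 0.37, osteoblast genes on the negative side with a median of -0.32, and the poly(A) machinery near 0.

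Because Tent5c did not overlap between genotypes, a correlation over all samples would restate the genotype difference, and 4 and 3 samples are too few to test one within a genotype. The levels were therefore set side by side as scores, the mean log2 CPM of a list. The erythroid score was 7.45, 7.66, 7.70 and 7.55 in WT replicates 1 to 4 and 8.14, 7.83 and 7.99 in Trpc1-/- replicates 1 to 3. Tent5c was at 8.79, 8.70, 8.69 and 8.69 log2 CPM in the same WT samples and 9.29, 9.30 and 9.40 in the Trpc1-/- samples. Both were higher in every Trpc1-/- sample. Within a genotype the order differed, since WT replicate 1 had the lowest erythroid score and the highest Tent5c, and Trpc1-/- replicate 1 the highest erythroid score and the lowest Tent5c. The correlation of the deviations from the genotype means was -0.43 over the 7 samples with TMM scaling and 0.96 without it, as a change of scale moves both values of a sample together, so no direction is read from it.

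The difference between Tent5c and the erythroid score within a sample does not depend on scaling. It was 1.34, 1.04, 0.99 and 1.15 log2 units in the WT samples and 1.15, 1.47 and 1.41 in the Trpc1-/- samples. These values overlapped through WT replicate 1, and the other 3 WT samples lay just below the lowest Trpc1-/- sample. The score was higher by 0.40 and Tent5c by 0.61 log2 units, which left a difference of 0.21, between 0.15 and 0.31 when any 1 sample was left out. The ratio of Tent5c to a single erythroid gene overlapped between the genotypes for 27 of 43 genes, was higher in every Trpc1-/- sample for 16 and lower in every one for 0. Over all other tested genes, that ratio overlapped for 30.2% and was higher in every Trpc1-/- sample for 69.8%, as Tent5c was chosen for its genotype difference. Tent5c over Epb41 was 0.804, 0.785, 0.801 and 0.804 in the WT samples and 0.821, 0.945 and 0.928 in the Trpc1-/- samples. Tent5c over Hbb-bs was 0.0727, 0.0377, 0.0335 and 0.0406 in WT and 0.0392, 0.0437 and 0.0331 in Trpc1-/-, so that the other 6 samples lay close together and WT replicate 1 apart. With the erythroid score as a covariate the log2 fold change of Tent5c was 0.68 (SE 0.17), against 0.61 (SE 0.086) without it. The score did not overlap between the genotypes either, so this fit cannot separate the difference of Tent5c from that of the score.

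**Figure D4:**
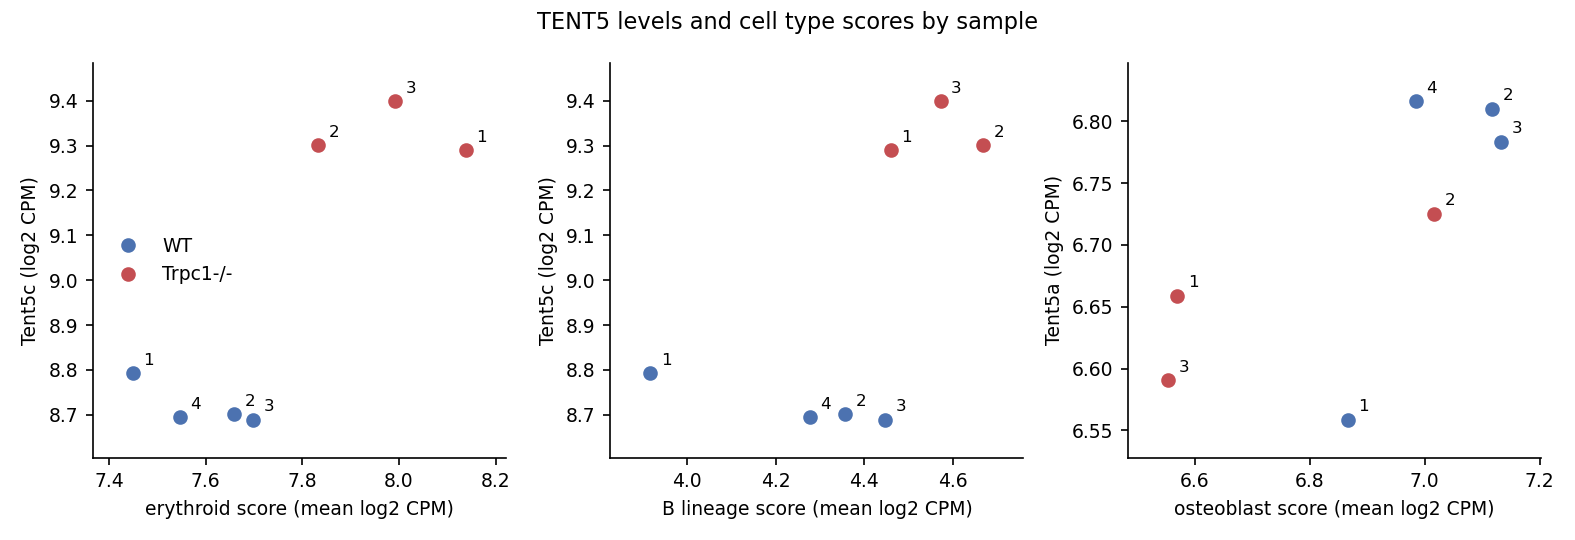
Tent5c against the erythroid score (left) and the B lineage score (middle), and Tent5a against the osteoblast score (right), all as log2 CPM, for each WT (blue) and Trpc1-/- (red) sample numbered by replicate. In the left and middle panels the genotypes form separate groups along Tent5c, with WT replicate 1 lowest in the score and highest in Tent5c among WT, and on the right WT replicate 1 lies below the other samples of a similar score.

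WT replicate 1 touched the erythroid genes unevenly. Hbb-bs was lower there than in the mean of the other WT samples by 0.87 log2 units (-0.87), Car1 by 1.15 (-1.15) and Gata1 by 0.57 (-0.57), while Slc4a1 (-0.05), Fech (0.00) and Xpo7 (0.01) were close to them and Sptb (0.47), Ank1 (0.64) and Trim58 (0.84) were higher. Of the 43 erythroid genes, 24 were lower in WT replicate 1 than in each other WT sample. The departure went with exon length, with a Spearman rho of 0.65 across the 43 genes, which share the same libraries. Over all tested genes with an exon length, the median departure was -0.34 in the fifth with the shortest exons, up to 1951 bases, and 0.23 in the fifth with the longest, from 7044 bases. Tent5c, with 6097 exon bases, departed by 0.10 and Tent5a, with 5703, by -0.24. The part of this sample's departure in the results was not tested beyond leaving it out. Without it the median log2 fold change of the erythroid list was 0.33.

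**Figure D5:**
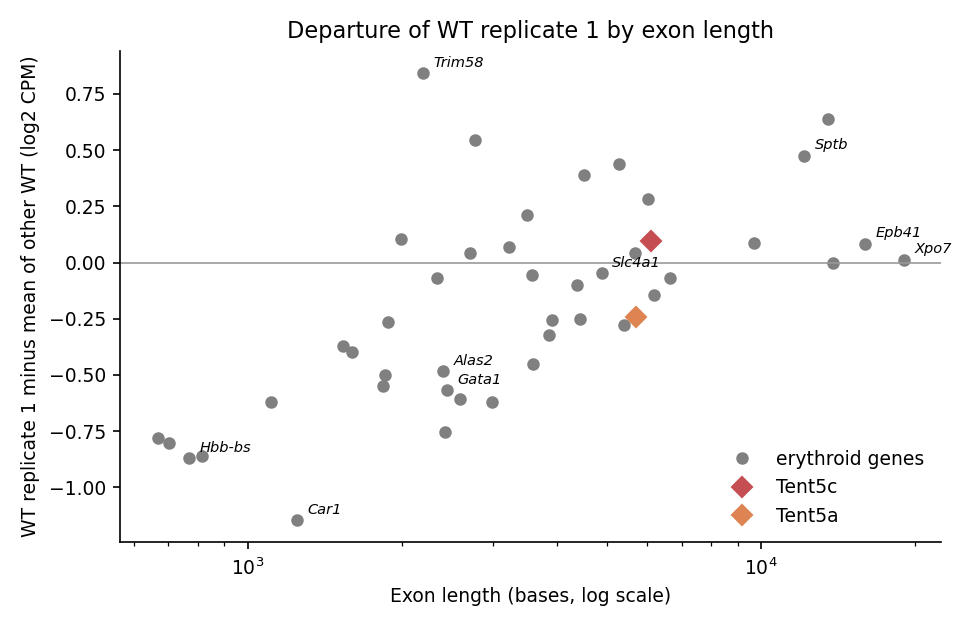
Difference between WT replicate 1 and the mean of the other WT samples (log2 CPM, y axis) against exon length in bases (log x axis) for 43 erythroid genes (grey), Tent5c (red) and Tent5a (orange). Short genes such as Hbb-bs and Car1 lie far below 0 and Tent5c slightly above it.

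B lineage genes, like several marker lists given above, were mostly on the same side as Tent5c, with fewer calls than the erythroid genes. Of 24 tested, 23 had a higher mean in Trpc1-/-, against 48.1% of all tested genes, with a median log2 fold change of 0.28. Without overlap were 8 genes, where 7.15% of all genes were. At an unadjusted P under 0.05 in edgeR 5 were higher, against 4.51% of all genes. DESeq2 called 1 higher, against 0.962% of all genes. It was Fcer2a, a receptor of mature B cells, at 4.32, 4.60, 4.52 and 5.14 CPM in WT and 5.36, 8.53 and 8.81 CPM in Trpc1-/-. The count was 0 without WT replicate 2 or 3 or Trpc1-/- replicate 2 or 3, 2 without WT replicate 1, and 3 without WT replicate 4 or Trpc1-/- replicate 1. Cd79a, a chain of the B cell receptor, was at 16.9, 29.9, 31.6 and 23.8 CPM in WT and 32.2, 36.9 and 34.3 CPM in Trpc1-/-. Vpreb1, of the pre-B cell receptor, and Ms4a1, the gene of CD20, had log2 fold changes of 0.45 (SE 0.21) and 0.43 (SE 0.21) without overlap, and Rag1, the recombinase, 0.06 (SE 0.20) with overlap. Without WT replicate 1, which was lowest in Cd79a, Vpreb1 and Ms4a1, the list median was 0.17. Within the samples whose column names hold numbers of the 1300s, which include that sample, the median was 0.49.

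The B lineage score was 3.92, 4.36, 4.45 and 4.28 in WT and 4.46, 4.67 and 4.57 in Trpc1-/-, so the genotypes were separated by a margin that is lost without TMM scaling. Tent5c minus this score was 4.88, 4.35, 4.24 and 4.42 log2 units in WT and 4.83, 4.63 and 4.83 in Trpc1-/-. WT replicate 1 was the highest of the 7 in this measure, and the other 3 WT samples lay below all Trpc1-/- samples. The correlation of the deviations from the genotype means was -0.60 with TMM scaling, 0.78 without it and 0.07 without WT replicate 1.

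In plasma cells and their immunoglobulin mRNAs, the known targets of TENT5C, no gene was called by edgeR or DESeq2. The plasma cell list had a median log2 fold change of 0.05 over 13 tested genes, and 1 of them, Slamf7, was higher without overlap, where 7.15% of all genes were. Jchain, which joins IgM and IgA, was at 26.4, 86.5, 98.9 and 83.7 CPM in WT and 105, 94.7 and 137 CPM in Trpc1-/-. Xbp1 and Prdm1, transcription factors of plasma cells, and Sdc1, the gene of CD138, had log2 fold changes of 0.05 (SE 0.12), -0.06 (SE 0.17) and -0.12 (SE 0.11). Igkc, the kappa light chain, was at 71.3, 301, 343 and 324 CPM in WT and 268, 293 and 345 CPM in Trpc1-/-. Ighm, the heavy chain of IgM, was at 192, 383, 421 and 387 CPM in WT and 405, 512 and 392 CPM in Trpc1-/-. Jchain, Igkc and Ighm were each lowest in WT replicate 1, the WT sample with the highest Tent5c after TMM scaling. The median over 10 immunoglobulin constant genes was 0.23 and -0.11 without WT replicate 1, so its sign rested on that sample. Without it, edgeR called Ighg2b lower in Trpc1-/- (log2 fold change -1.50, adjusted P of 0.022 with Benjamini-Hochberg adjustment), at 99.8, 113 and 162 CPM in the remaining WT samples and 45.0, 42.4 and 45.0 CPM in Trpc1-/-.

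Osteoblast genes, the setting in which TENT5A is known, were lower in Trpc1-/- by their mean in 25 of 26 genes, against 51.9% of all tested genes. The median log2 fold change was -0.32, and 3 of 26 did not overlap, where 6.42% of all genes were lower without overlap. At an unadjusted P under 0.05 in edgeR 5 were lower, against 5.49% of all genes. DESeq2 called 1, Sost, the gene of the osteocyte protein sclerostin, against 0.828% of all genes lower. Without Trpc1-/- replicate 2 the median was -0.51 and DESeq2 called 9, without WT replicate 1 it was -0.34 and DESeq2 also called 9, and without WT replicate 2 or Trpc1-/- replicate 1 or 3 DESeq2 called 0. Chondrocyte markers were lower too, in 6 of 6 by their mean with a median of -0.42, and 1 of the 6, Comp, did not overlap, while their part in the osteoblast values was not tested. Sost was at 26.8, 37.5, 43.0 and 37.0 CPM in WT and 22.2, 23.0 and 19.4 CPM in Trpc1-/-, a log2 fold change of -0.75 (SE 0.16) with a DESeq2 adjusted P of 0.0033 with Benjamini-Hochberg adjustment. Col1a1, a collagen I chain and known TENT5A target, was at 12768, 8405, 7082 and 6331 CPM in WT and 4873, 8876 and 5154 CPM in Trpc1-/-. Col1a2, the other chain, had a log2 fold change of -0.35 (SE 0.24), Sparc, a matrix protein, one of -0.37 (SE 0.18), and Serpinf1, which encodes PEDF, one of -0.35 (SE 0.18). Bglap, the gene of osteocalcin, Sp7, the osteoblast transcription factor, Ibsp, bone sialoprotein, and Alpl, alkaline phosphatase, had values of -0.16, -0.26, -0.16 and -0.45. Each of these targets and markers overlapped between genotypes, and Trpc1-/- replicate 2 was the highest of its group in all of them.

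The osteoblast score was 6.87, 7.12, 7.13 and 6.98 in WT and 6.57, 7.02 and 6.55 in Trpc1-/-. Tent5a was at 6.56, 6.81, 6.78 and 6.82 log2 CPM in WT and 6.66, 6.73 and 6.59 in Trpc1-/-. Both overlapped between genotypes, so the relation was computed over the 7 samples. It was the only relation tested, so that its adjusted P equals its P. The permutations ignored genotype, while the score (by -0.31 log2 units) and Tent5a (by -0.08) were both lower in Trpc1-/- by their mean. The P values can thus in part restate that shared difference. Deviations from the genotype means, after TMM scaling, were also correlated with those of Tent5a over the same 7 samples. The values were 0.67 for the osteoblast score, 0.85 for the B lineage, 0.82 for the plasma cell and 0.89 for the immunoglobulin constant score. WT replicate 1 weighed on the last 3, deviating by -0.33, -0.26 and -1.89, and by -0.18 in Tent5a. In Trpc1-/- replicates 1 to 3 the immunoglobulin constant score deviated by 0.02, -0.05 and 0.02 and Tent5a by 0.0007, 0.07 and -0.07, in opposite directions. So no closer relation is read from these values. For Tent5a against the osteoblast score, Pearson's r was 0.74 (exact permutation P of 0.073, two-sided). Spearman's rho was 0.64 (exact permutation P of 0.14, two-sided). Without the 2 samples farthest from the median score, Trpc1-/- replicates 1 and 3, r was 0.80 (exact permutation P of 0.10) and rho 0.30 (exact permutation P of 0.68), over 5 samples. Without Col1a1 and Col1a2 in the score r was 0.80 (exact permutation P of 0.041), and without WT replicate 1 it was 0.90 (exact permutation P of 0.029). Without TMM scaling r was 0.82 (exact permutation P of 0.026). A change of scale moves both values of a sample together, so nothing is read from r without TMM scaling. So the side of 0.05 depended on the genes of the score and on the samples. Within WT r was 0.80 and within Trpc1-/- 0.88, over 4 and 3 samples and with no test. Tent5a minus the score, free of scaling, was -0.31, -0.31, -0.35 and -0.17 in WT and 0.09, -0.29 and 0.04 in Trpc1-/-. Over the single genes, the SD of the log2 ratio to Tent5a over 7 samples was lowest for Crtap, at 0.12, and highest for Col1a1, at 0.51, and its median over the list, 0.27, was above the 0.22 of all tested genes.

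By the SD of the log2 ratio over the 7 samples, the genes most like Tent5c were Cmss1 (0.072), Nhlrc4 (0.074), Slc25a21, a mitochondrial carrier (0.087), Tfdp2, a partner of E2F transcription factors (0.093), and Tspan8, a tetraspanin (0.109). The median over all other tested genes was 0.386. This measure spans both genotypes, so a gene comes close to Tent5c by having a like genotype difference, the value the family was chosen by, and the log2 fold changes of these 5 genes were 0.46 to 0.59. Tfdp2 was at 198, 202, 204 and 204 CPM in WT and 295, 265 and 291 CPM in Trpc1-/-. For the same reason the values of erythroid genes, from 0.110 for Epb41 to 0.534 for Car1 among those named here, restate in part their own genotype differences. The genes most like Tent5a were Gorab, a Golgi protein (0.023), Cd93 (0.025), Stim2, a calcium sensor of the endoplasmic reticulum (0.025), Chsy1, a chondroitin synthase (0.032), and Slc31a1, a copper importer (0.034), against a median of 0.221. Gorab was at 6.85, 8.10, 8.03 and 7.85 CPM in WT and 7.38, 7.67 and 6.93 CPM in Trpc1-/-, so that WT replicate 1 was the lowest, as for Tent5a. No osteoblast gene was among these 5.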

How the data were processed

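RNA was isolated from 4 WT and 3 Trpc1-/- samples, and the authors prepared ribosomal RNA-depleted stranded libraries of total RNA. Per the labels and the study's methods, the authors trimmed reads with Cutadapt 2.5, aligned them to GRCm38 with HISAT2 2.1.0 and estimated coverage with StringTie 2.0.3, from which the deposited estimated counts per gene were made. They are whole numbers, made from coverage and not from counted fragments. The labels give 4 WT and 3 Trpc1-/- samples and the study's methods the reverse, and the labels were used.

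The 16429 of 55401 genes that exceeded 1 CPM in 2 or more samples were tested with edgeR 4.0.16 (quasi-likelihood, TMM, genotype only, R 4.3.3) and Benjamini-Hochberg adjustment at 0.05. Counts from 52142451 to 118254070 per sample limit the precision, and floors cover counting error only. DESeq2 1.42.0, limma 3.58.1, other normalizations and filters, a replicate block, mouse number series, covariates and leaving out each sample were alternatives. The calculations were tested on simulated data. Log2 CPM used a prior count of 1. Exon lengths and sequences came from GENCODE M21, in which 55141 gene IDs matched, and the annotation release behind the counts is not given in the sources used here. The text names the members, Trpc1, fixed pathway and lineage genes, list genes called by either tool and the 5 genes closest in pattern to Tent5c and to Tent5a. Ahsp was not analysed here, and 1 called list gene is not reported here by name. Members and lists were chosen with earlier results of these data known. P values measure the spread between these pooled samples.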

Additional observations from a re-analysis of the deposited data

Results flagged for a closer look

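A WT sample was marked when its gap to the nearest of the other 3, divided by the range of the 4, was above 0.829. This marks about 1 in 20 groups by chance. It marked 10 of the 74 values examined, of which 8 were set apart by WT replicate 1. That sample was marked in 2 TENT5 genes, at 443 CPM as the highest WT sample for Tent5c and at 94.3 CPM as the lowest for Tent5a. Without TMM scaling it was the lowest of the WT samples for Tent5c too. It was the lowest WT sample for Cnot7 (37.0 CPM), Xbp1 (89.9 CPM), Ighm (192 CPM), Igkc (71.3 CPM), Alpl (124 CPM) and the immunoglobulin constant score (2.88 log2 CPM). Tent5d was set apart by WT replicate 3, at 0.0488 CPM from 6 counts where the other WT samples had 0. Prdm1 was set apart by WT replicate 4, at 7.85 CPM. The cause of these departures was not tested.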

How the results depend on the processing

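Tent5c stayed higher and Tent5a lower in Trpc1-/- under every alternative tried. The log2 fold change of Tent5c was 0.58 to 0.64 when any 1 sample was left out (edgeR or DESeq2). Under the other alternatives it was 0.58 to 0.68, with 0.68 under the erythroid covariate, which did not overlap between genotypes. The log2 fold change of Tent5a was -0.15 to -0.05 and -0.18 to -0.03. The number of genes called with genotype only was 0 in edgeR, 294 in DESeq2 and 1 in limma-voom (Gm11868, named after its value was seen). With library size as a covariate, edgeR called Gm16867 and Olfml3 lower and Trim59 higher in Trpc1-/-, also named after their values were seen. When any 1 sample was left out, 0 to 890 genes were called. The 890 came from DESeq2 without WT replicate 1, where edgeR called 49. DESeq2 called 62, 134 and 283 without WT replicates 2, 3 and 4, and 79, 367 and 37 without Trpc1-/- replicates 1, 2 and 3, of which 4, 16, 8, 3, 20 and 3 were erythroid genes. DESeq2 called 15 erythroid, 1 B lineage and 1 osteoblast genes. With any 1 sample left out, by either tool, the calls were 0 to 30 erythroid, 0 to 3 B lineage, 0 to 3 immunoglobulin constant, 0 to 9 osteoblast and 0 to 3 poly(A) machinery genes, and the medians were 0.28 to 0.45, 0.17 to 0.41, -0.11 to 0.35, -0.51 to -0.25 and 0.04 to 0.07. The plasma cell median was -0.02 to 0.10. The B lineage median was 0.49 with the number series of the column names as a covariate or with the 1300s alone. The median of the poly(A) machinery was 0.086 without a filter on low counts. Tent5a against the osteoblast score had an r of 0.63 to 0.90 with any 1 sample left out and 0.80 without the collagen genes. It was 0.82 without TMM scaling, where a change of scale moves both values of a sample together. The difference of Tent5c left after the erythroid score was 0.15 to 0.31 and after the B lineage score 0.22 to 0.43. The correlation of deviations was -0.86 to -0.064 for the erythroid and -0.87 to 0.072 for the B lineage score, and 0.96 and 0.78 without TMM scaling.

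Between the genotypes, the deviations of same-numbered samples correlated at -0.35, -0.20 and -0.04. These values show no sign of a pairing by replicate number but cannot exclude one. With the replicate block on replicates 1 to 3, the log2 fold change of Tent5c was 0.60 and edgeR called 0 genes, while DESeq2 called 53 genes and 2 erythroid genes. The DESeq2 fits with the block or with a sample left out, and the deviations with a sample left out, were added after the data were seen.

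Depth limits Tent5b and Tent5d, for which no comparison was possible. The labels state pooled mice, and a single sample, WT replicate 1, moved several results. The part of its departure with exon length in those results was not tested beyond leaving it out. Both samples whose column names hold numbers of the 1700s are WT, which leaves no comparison of genotypes within that series. What these numbers stand for is not stated.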
